A study of Mus musculus with 36 samples.

Results

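The 10 genes described here encode the Polycomb repressive complex 2 (PRC2) and an enzyme that reverses its mark. They were chosen by name, as 9 genes of the complex (Ezh1, Ezh2, Eed, Suz12, Rbbp4, Rbbp7, Jarid2, Mtf2 and Phf19) and the demethylase Kdm6b, out of the 21955 gene rows of the count tables. All 10 were among the 13436 genes that passed the filter on low counts. The tissue was liver of C57BL/6JN mice, an inbred laboratory strain, collected before and at 5 time points of regeneration, and total RNA was read. Mice were young (4 months) or old (18 months), and the time points carry the labels before, 48, 72, 96, 120 and 240. No unit is stated for the numbers, nor how regeneration was set off. No allele or agent distinguishes the groups, so each of the 12 groups is an age and a time point, with 3 libraries described as biological replicates (36 libraries in all).

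PRC2 places methyl groups on lysine 27 of histone H3, and the trimethylated form, H3K27me3, marks genes kept silent. EZH2 and EZH1 are the alternative catalytic subunits, which work only together with EED, the subunit that reads the mark, and SUZ12, the scaffold. RBBP4 and RBBP7 are histone-binding subunits shared with other chromatin complexes, JARID2, MTF2 and PHF19 are accessory subunits that help direct the complex to its sites, and KDM6B removes the methyl groups. EZH2 is typical of dividing cells and EZH1 of resting ones, and the adult liver is a mostly resting tissue whose hepatocytes re-enter the cell cycle during regeneration.

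In young livers 4 of the 10 genes rose at 48 (Ezh2, Eed, Mtf2 and Rbbp7) and 2 fell (Jarid2 and Kdm6b), where 12.2% of all tested genes were called higher and 9.79% lower. Ezh2 moved most, to 3.57 times its level before on the fitted scale. In old livers none of the 10 was called at 48, where 24.1% of all genes were called, and Ezh2 rose at 72 and 96. Between the ages, 4 genes differed at 48, where Ezh2, Suz12 and Rbbp4 were lower and Kdm6b was higher in old livers and 11.2% of all genes were called.

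Total counts per library were 3629315 to 6034446 in young and 2328233 to 4909023 in old livers, and 4 old libraries, 1 at 96, 2 at 120 and 1 at 240, lay below every young one. The libraries held liver RNA by their markers: the 12 hepatocyte genes summed to between 22611 and 40334 CPM (the usual depth-scaled count, here with library totals adjusted by the TMM method). In 12 libraries, 1 of each group, Y-linked transcripts summed to at least 180 CPM, against at most 0.211 CPM in the other 24, so a split that the labels do not give was spread evenly over the groups. Replicate 2 of old mice at 48 stood apart from its group. Its 20 mitotic genes summed to 39.7 CPM, against 313 and 1140 CPM in the other two libraries, and where a call of the 10 genes changed without it, the value without it is given. In bulk tissue, fewer cells of a type and less RNA per cell cannot be told apart.

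Before regeneration the levels per length of transcript spanned more than an order of magnitude. Rbbp7 was highest, at 22.0 ± 2.92 CPM per kilobase of exon in young and 21.7 ± 1.79 in old livers (SD, n = 3). In young livers Suz12 (11.9 ± 2.17), Kdm6b (10.7 ± 1.00) and Rbbp4 (8.48 ± 0.84) came next in CPM per kilobase, and the ranges of Suz12 and Kdm6b overlapped. Eed (6.15 ± 1.12), Jarid2 (5.70 ± 0.34) and Mtf2 (5.09 ± 0.62) followed with overlapping ranges. Ezh1 stood at 3.26 ± 0.39, Phf19 at 1.39 ± 0.13 and Ezh2 at 1.06 ± 0.25 CPM per kilobase. In old livers Phf19 (1.72 ± 0.99) and Ezh2 (0.88 ± 0.12) were again the lowest, with overlapping ranges. Resting liver thus held more Ezh1 than Ezh2 transcript per length at both ages, and the 3 libraries of each gene did not overlap with those of the other.

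Promoters are shown for the genes whose windows hold an E2F-type sequence, because E2F factors are the textbook activators of genes used in DNA replication, and Ezh1 is added as the paralog of Ezh2 without one. RefSeq promoter windows (build GRCm38.p6) were found for 9 of the 10 genes, with 11 windows in all. Each was searched on both strands for the E2F-type letters TTCCCGC and TTGGCGC over 300 bases, from 250 bases before the start site. Of the 9 genes, 4 held a match (Ezh2, Suz12, Rbbp4 and Phf19), and 6.81% of 32851 promoters of that length held either sequence. The windows below run 5′ to 3′ from 250 bases before the start over 270 bases, with the E2F-type letters in capitals. They lie at chr6:47595011-47595280, minus strand, at chr11:79992856-79993125, plus strand, at chr4:129335351-129335620, minus strand, at chr2:34913957-34914226, minus strand, and at chr11:101226444-101226713, minus strand.
Ezh2: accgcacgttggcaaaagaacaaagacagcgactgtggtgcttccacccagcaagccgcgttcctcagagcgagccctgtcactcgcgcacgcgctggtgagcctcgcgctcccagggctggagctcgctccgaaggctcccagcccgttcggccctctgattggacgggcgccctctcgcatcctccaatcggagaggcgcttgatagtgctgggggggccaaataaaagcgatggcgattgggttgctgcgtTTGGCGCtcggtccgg
Suz12: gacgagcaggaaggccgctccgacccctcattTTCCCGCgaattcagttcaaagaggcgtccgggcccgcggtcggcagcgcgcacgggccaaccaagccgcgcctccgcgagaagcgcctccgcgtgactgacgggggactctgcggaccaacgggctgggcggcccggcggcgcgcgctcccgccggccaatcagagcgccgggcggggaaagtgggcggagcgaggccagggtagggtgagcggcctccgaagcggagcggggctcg
Rbbp4: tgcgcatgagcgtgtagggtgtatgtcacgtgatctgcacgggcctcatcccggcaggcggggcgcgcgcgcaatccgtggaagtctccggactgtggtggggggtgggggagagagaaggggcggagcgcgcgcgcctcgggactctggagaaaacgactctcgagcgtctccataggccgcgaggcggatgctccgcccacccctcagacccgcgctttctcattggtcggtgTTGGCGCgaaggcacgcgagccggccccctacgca
Phf19: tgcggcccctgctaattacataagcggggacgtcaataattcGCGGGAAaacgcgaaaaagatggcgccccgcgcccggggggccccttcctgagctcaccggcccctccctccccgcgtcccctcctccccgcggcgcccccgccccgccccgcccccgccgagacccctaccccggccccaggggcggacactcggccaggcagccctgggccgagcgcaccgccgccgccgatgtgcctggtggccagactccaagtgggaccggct
Ezh1: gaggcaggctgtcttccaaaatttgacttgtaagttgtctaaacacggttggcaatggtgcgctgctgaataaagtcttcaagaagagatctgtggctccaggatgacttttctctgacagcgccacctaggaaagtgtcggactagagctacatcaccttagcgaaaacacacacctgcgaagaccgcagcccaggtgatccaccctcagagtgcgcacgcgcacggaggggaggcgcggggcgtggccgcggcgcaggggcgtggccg
In Ezh2 the match begins 4 bases after the start site. In Rbbp4 it begins at -15, in Phf19 at -208 and in Suz12 at -218 relative to the start, and no E2F-type match overlaps another motif that was searched. Offsets are measured from the RefSeq start. In GENCODE M21 the Ezh2 gene reaches 47595341, so its whole printed window lies inside the gene. The Phf19 gene reaches 34914026 there, also past the RefSeq start. For Ezh2 and Phf19 the offset thus depends on the annotation. The CCAAT box (CCAAT, either strand), found in 37.4% of all promoters, occurred 3 times in the Ezh2 window and 3 times in a second Mtf2 window. It was also present in Eed, Suz12, Rbbp4, Rbbp7 and Jarid2. TTTGAA, the core letters of the cell cycle genes homology region, found in 17.9%, occurred in Eed, Suz12 and the second Mtf2 window. A match describes the letters only, and the RNA counts say nothing of what binds there.

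**Figure D1:**
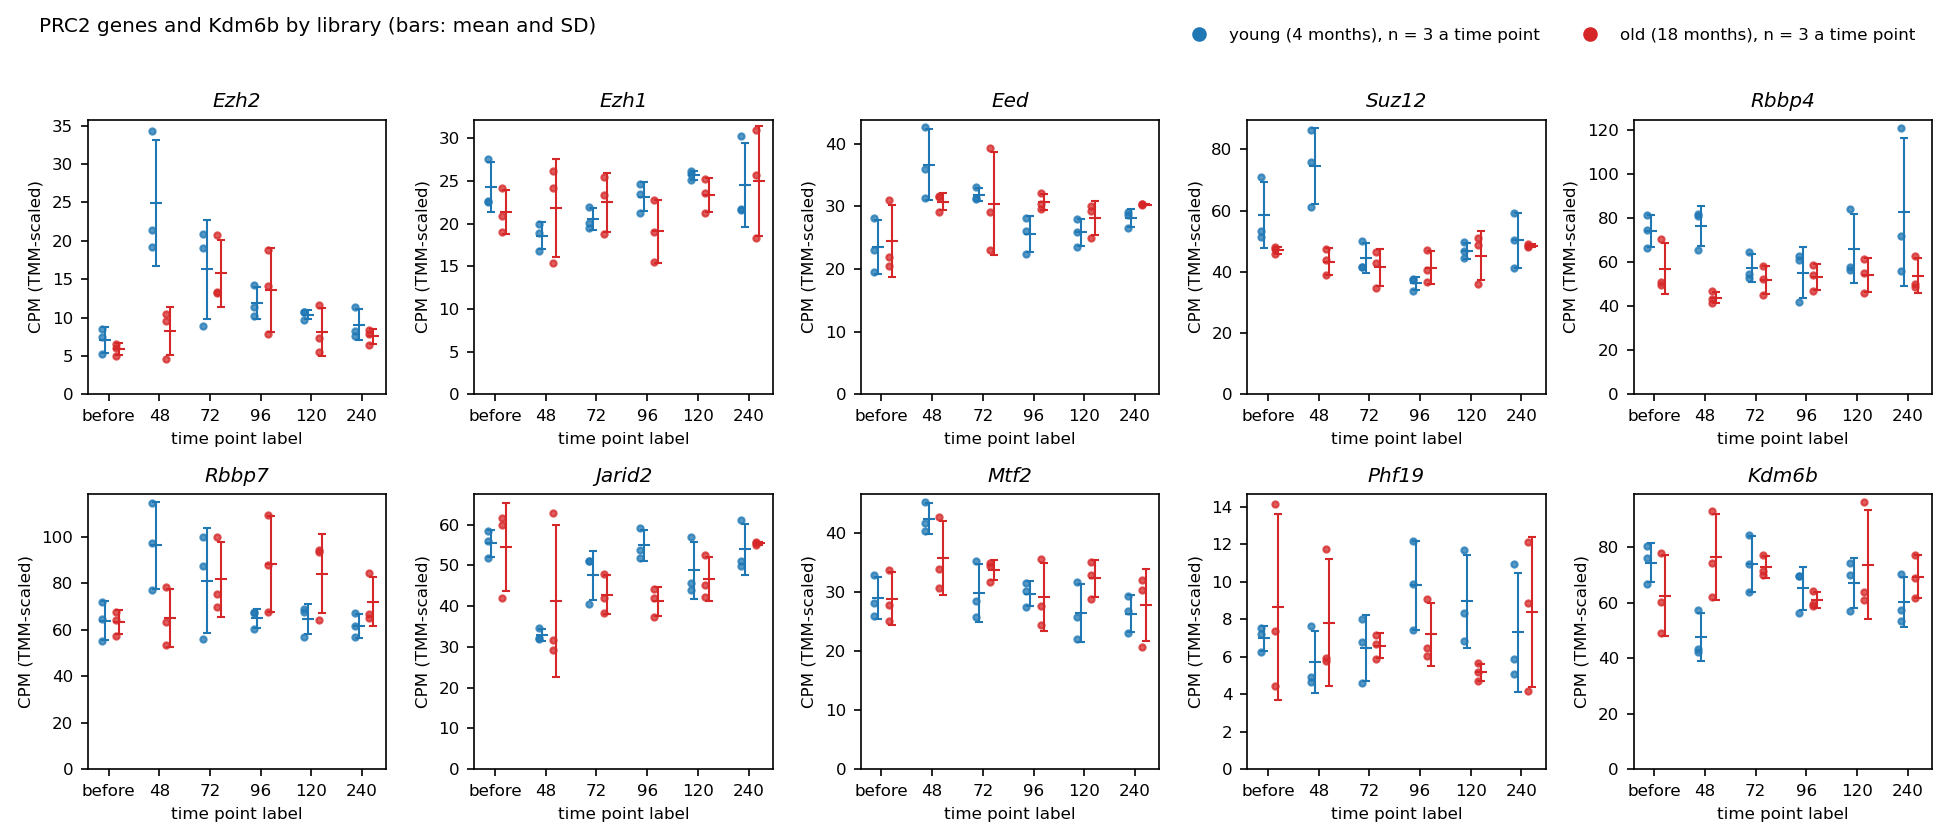
Level of each of the 10 genes in every library (CPM, TMM-scaled, linear axes from 0) by time point label. Points are libraries of young (blue) and old (red) mice, and bars give the mean and SD of the 3 libraries of a group. Ezh2 peaks at 48 in young livers, at a mean of 24.97 CPM, and at 72 in old livers, at 15.8 CPM.

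Ezh2 (chromosome 6, 47530139 to 47595341, minus strand; GRCm38, 21 merged exons), the main catalytic subunit of dividing cells, stood at 5.20, 8.46 and 7.51 CPM in the 3 young libraries before. At 48 they held 34.3, 19.1 and 21.4 CPM, so each was above every library before. At 72 the values were 19.1, 20.9 and 8.91 CPM, and the lowest, a library with Y-linked transcripts, lay close to the level before. In the young libraries at 96, 120 and 240 Ezh2 ranged from 7.60 to 14.3 CPM. The log2 fold change against before was 1.84 ± 0.33 at 48 (SE; adjusted p 0.000154, edgeR's quasi-likelihood test) and 1.22 ± 0.34 at 72 (adjusted p 0.0126). The call at 72 was lost when replicate 1 before, or replicate 1 or 2 at 72, was left out (adjusted p up to 0.0792).

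In old livers Ezh2 started at 6.57, 6.03 and 5.02 CPM. At 48 it was 9.56, 4.66 and 10.4 CPM, so that replicate 2 lay below every library before and the other two above. At 72 it was 13.3, 20.8 and 13.2 CPM, and at 96 it was 14.2, 18.8 and 7.88 CPM, above all libraries before in both cases. By 120 (11.6, 7.29 and 5.53 CPM) and 240 (8.36, 6.47 and 7.86 CPM) the ranges met those before. The change at 48 was 0.48 ± 0.35 (adjusted p 0.333), and 0.79 without replicate 2 (adjusted p 0.13). At 72 Ezh2 rose by 1.42 ± 0.34 (adjusted p 0.00667), and at 96 by 1.22 ± 0.35 (adjusted p 0.0314). The call at 96 was lost in 4 of the 6 fits that left out a library before or at 96 (adjusted p up to 0.217), in the fit of the groups compared alone (0.0777) and in the libraries without Y-linked transcripts alone (0.0944). Ezh2 was also the only 1 of the 10 genes called for any change over the time points in old livers (adjusted p 0.0116), with 20.5% of all tested genes called, and this call was lost when only the old libraries were fitted (adjusted p 0.0627) and in the libraries without Y-linked transcripts alone (0.0548).

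Ezh1 (chromosome 11, 101191115 to 101226463, minus strand), the catalytic subunit of resting cells, was called in no comparison. In young livers it stood at 22.7, 27.6 and 22.5 CPM before and 16.8, 18.9 and 19.96 CPM at 48, where all 3 libraries lay below those before (log2 fold change -0.39 ± 0.19, adjusted p 0.15). Over all 36 libraries it stayed between 15.3 and 31.0 CPM, whereas Ezh2 spanned 4.66 to 34.3 CPM. The balance of the paralogs therefore followed Ezh2. The ratio of Ezh2 to Ezh1 counts within a library was 0.229 to 0.333 in young livers before, and 1.01 to 2.04 at 48. In old livers it was 0.208 to 0.318 before, 0.178 to 0.623 at 48, 0.524 to 1.11 at 72 and 0.346 to 0.989 at 96. These are ratios of counts, not per length. All 3 young libraries at 48 held more Ezh2 than Ezh1 counts, as did 1 young and 1 old library at 72.

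**Figure D2:**
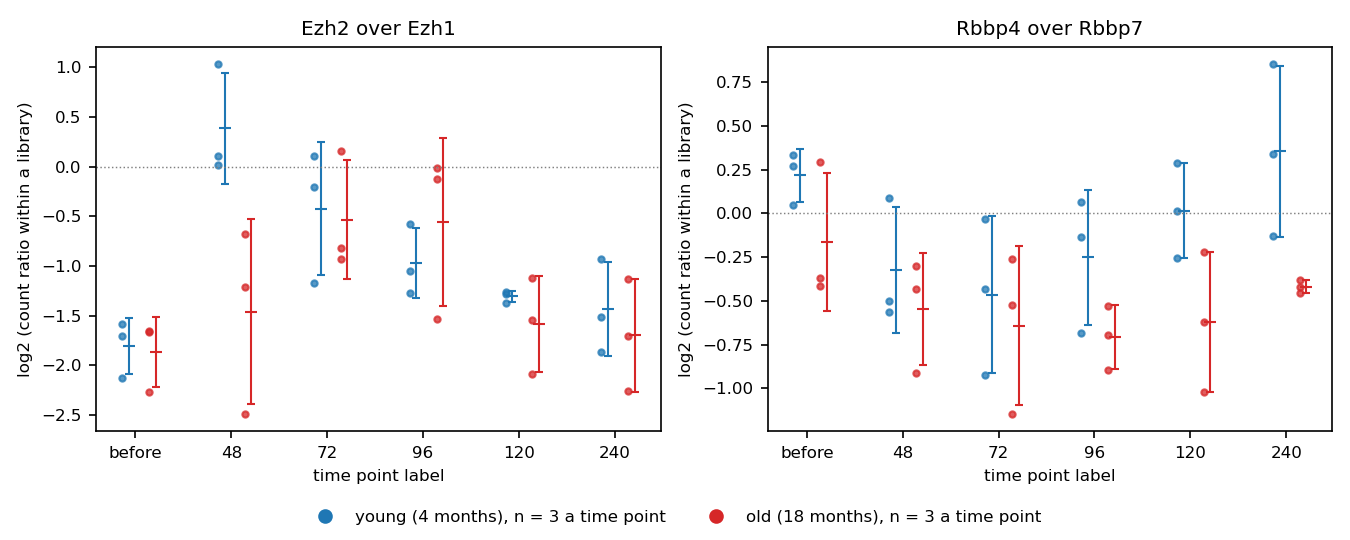
Log2 ratio of counts of Ezh2 to Ezh1 (left) and of Rbbp4 to Rbbp7 (right) within each library, by time point label, with young in blue, old in red and bars for the mean and SD of 3 libraries. The dotted line marks equal counts. The mean log2 ratio of Ezh2 to Ezh1 was 0.38 in young and -1.46 in old livers at 48.

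Eed (chromosome 7, 89954654 to 89980983, minus strand), the subunit that binds H3K27me3, stood at 19.6, 28.1 and 23.0 CPM in young livers before and 35.9, 31.3 and 42.6 CPM at 48. All 3 libraries at 48 lay above those before, and Eed rose by 0.64 ± 0.17 in log2 units (adjusted p 0.00569). Without replicate 1 before, and in the libraries without Y-linked transcripts alone, this call was lost (adjusted p up to 0.148). At 72 it held 31.1 to 33.1 CPM (0.44 ± 0.17, adjusted p 0.0681), and it was called there with total-count scaling (0.63, adjusted p 0.0127) and without replicate 2 before (0.58, adjusted p 0.0377). In old livers the group means were 24.5 CPM before and 28.1 to 30.7 CPM at each later time point, with no call. Without replicate 2 before, Eed was called higher in old livers at 48 (0.54, adjusted p 0.0371). Of the Eed exon bases, 6.82% overlap a transcript on the opposite strand (E230029C05Rik), and the use of strand in counting is not given in the sources used here.

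Suz12 (chromosome 11, 79993106 to 80034123, plus strand), the scaffold, followed another course. Young libraries held 51.4, 53.5 and 70.9 CPM before, 86.3, 76.1 and 61.4 CPM at 48 and 33.9, 37.2 and 37.6 CPM at 96. The groups before and at 48 overlapped (log2 fold change 0.35 ± 0.15, adjusted p 0.102), and those before and at 96 did not. At 96 Suz12 fell by 0.69 ± 0.16 (adjusted p 0.0176). That call was lost with total-count scaling (-0.58, adjusted p 0.052), which also put Suz12 among the genes called higher at 48 (0.46, adjusted p 0.033). It was lost as well in the libraries without Y-linked transcripts alone, and without replicate 3 before or replicate 1 or 2 at 96 (adjusted p up to 0.139). In old livers Suz12 held between 34.8 and 51.0 CPM in all 18 libraries, with group means of 41.4 to 48.6 CPM and no call. Suz12 changed over the time points in young livers (adjusted p 0.000125) and was not called for change in old livers (adjusted p 0.708).

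Rbbp4 and Rbbp7 are close paralogs that chaperone histones in PRC2 and in the NuRD and Sin3 deacetylase complexes. Rbbp4 also does so in the CAF-1 complex, which loads histones behind replication forks. Rbbp7 was called at 48 in young livers and Rbbp4 was not, but a difference between the paralogs was not tested. Rbbp7 (X chromosome, 162760402 to 162779092, plus strand) stood at 64.5, 55.2 and 72.2 CPM in young livers before and 115, 77.1 and 97.3 CPM at 48, without overlap, and rose by 0.59 ± 0.20 (adjusted p 0.0331). This call was lost in 4 of 6 fits that left out a library of either group (adjusted p up to 0.169) and in the libraries without Y-linked transcripts alone (0.0897). In old livers Rbbp7 was at 57.5 to 67.8 CPM before, 53.4 to 78.4 CPM at 48, 69.8 to 99.9 CPM at 72 and 67.8 to 109.5 CPM at 96. The largest fitted difference in old livers was 0.48 ± 0.20 at 96 (adjusted p 0.154). Rbbp4 (chromosome 4, 129307100 to 129335370, minus strand) showed no call over time at either age. Its young libraries held 81.3, 66.7 and 74.6 CPM before and 81.0, 82.0 and 65.8 CPM at 48, overlapping ranges, and 1 library at 240 stood out at 121 CPM beside 56.2 and 71.7 CPM. At 72 (52.7 to 64.6 CPM) and 96 (42.0 to 62.9 CPM) the young libraries lay below every one before, without a call (adjusted p 0.233 and 0.34). Old libraries at 48 (41.7 to 46.9 CPM) also lay below every one before (49.8 to 70.4 CPM), without a call. The Rbbp4 to Rbbp7 count ratio was 1.03 to 1.26 in young livers before and 0.676 to 1.06 at 48, overlapping ranges. Reads may be shared or overlap other genes at these loci: 6.97% of the 50-base words of Rbbp7 transcripts occur in Gm6382 and 5.98% of its exon bases overlap Txlng on the other strand, and 8.94% of the exon bases of Rbbp4 overlap Sync.

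Among the accessory subunits, Jarid2 and Mtf2 moved in opposite directions. Jarid2 (chromosome 13, 44729474 to 44921643, plus strand) marks a form of the complex different from that of Mtf2 (chromosome 5, 108065674 to 108109004, plus strand). Young livers held 56.0, 58.4 and 51.8 CPM of Jarid2 before and 34.6, 32.1 and 32.0 CPM at 48. The groups were far apart, and its log2 level fell by 0.75 (SE 0.19, adjusted p 0.00506). By 96 it was back at 51.8 to 59.1 CPM. Mtf2 stood at 26.0, 28.1 and 32.9 CPM before and 41.7, 40.4 and 45.3 CPM at 48, again without overlap, and rose by 0.55 ± 0.17 (adjusted p 0.0206). At 72 it held 25.7 to 35.2 CPM, a range that covers the one before. The Jarid2 call was lost only in the libraries without Y-linked transcripts (adjusted p 0.0657), and the Mtf2 call there and in 3 of the 6 fits that left out a library (adjusted p up to 0.202). Of Mtf2 exon bases, 6.93% overlap Tmed5 on the opposite strand.

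In old livers the Jarid2 result turned on a single library. At 48 it stood at 31.8, 62.8 and 29.2 CPM, against 42.0, 59.9 and 61.6 CPM before, so that replicates 1 and 3 lay below every library before and replicate 2 above every one. With all libraries the difference was -0.40 ± 0.19 (adjusted p 0.124), and without replicate 2 at 48 Jarid2 fell by 0.81 (adjusted p 0.000994). Without that library Jarid2 was also called for change over time in old livers (adjusted p 0.00286, against 0.217 with it). Mtf2 in old livers was at 25.02 to 33.8 CPM before and 30.7, 42.7 and 34.0 CPM at 48 (0.31 ± 0.17, adjusted p 0.187). Phf19 (chromosome 2, 34893757 to 34914026, minus strand), a relative of Mtf2, was low throughout, at 14 to 62 counts or 4.18 to 14.1 CPM per library, and no comparison called it. Its spread within groups was wide, for example 4.46, 7.37 and 14.1 CPM in old livers before.

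Kdm6b (chromosome 11, 69398508 to 69413675, minus strand), an H3K27 demethylase, stood at 80.3, 66.7 and 76.0 CPM in young livers before and 43.1, 42.2 and 57.4 CPM at 48. The groups did not overlap, and Kdm6b fell by 0.65 (SE 0.18, adjusted p 0.0109). At 72 it held 73.8, 63.9 and 84.2 CPM, a range that covers the one before. The call was lost without replicate 1 before and without replicate 1 or 2 at 48 (adjusted p up to 0.0659). In old livers Kdm6b was at 49.1, 78.0 and 60.2 CPM before and 92.9, 74.1 and 62.2 CPM at 48, overlapping ranges with a difference of 0.29 ± 0.18 (adjusted p 0.246). The related demethylase Kdm6a, which is X-linked, was called in no comparison. Its lowest library in each of the 12 groups was the one with Y-linked transcripts, with medians of 25.8 CPM in those 12 libraries and 44.7 CPM in the other 24. Kdm6b showed no such split, with medians of 69.7 and 64.0 CPM.

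The counts of calls over time can be set against all genes. In young livers at 48, 6 of the 10 genes were called, 4 higher and 2 lower, where 21.9% of all 13436 tested genes were called (12.2% higher and 9.79% lower). The median log2 fold change of the 10 was 0.19, and that of all genes -0.01. At 72, 1 of 10 was called (Ezh2, higher), against 17.4% of all genes (9.21% higher), and at 96, 1 of 10 (Suz12, lower), against 1.4% (0.737% lower). At 120 and 240 edgeR and DESeq2 called 0 of 10 (1 and 0 at an unadjusted p under 0.05), where 0.581% and 0.246% of all genes were called. Over any change in young livers 5 of 10 were called (Ezh2, Suz12, Mtf2, Eed and Jarid2), against 21.4%. Rbbp7 was called as well when replicate 2 of old mice at 48 was left out (adjusted p 0.0289). Rbbp7 and Kdm6b were also called by DESeq2 (adjusted p 0.0284 and 0.0488) and when only the young libraries were fitted (0.0343 and 0.0368). In the libraries without Y-linked transcripts alone, the calls of Eed, Jarid2 and Mtf2 were lost (adjusted p 0.343, 0.232 and 0.161). In old livers at 48, edgeR and DESeq2 called 0 of 10, with 1 (Jarid2) at an unadjusted p under 0.05, where 24.1% of all genes were called. Ezh2 was the 1 gene of the 10 called at 72 (12.4% of all genes, 6.54% higher) and at 96 (6.82%, 3.76% higher). At 120 and 240 both tools called 0 of 10 (1 and 0 at an unadjusted p under 0.05), against 3.87% and 0.156%. Groups did not overlap for 7 of the 10 genes in young livers at 48 (41.4% of all genes) and for 1 of 10 (Rbbp4) in old livers at 48 (31.4%).

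**Figure D3:**
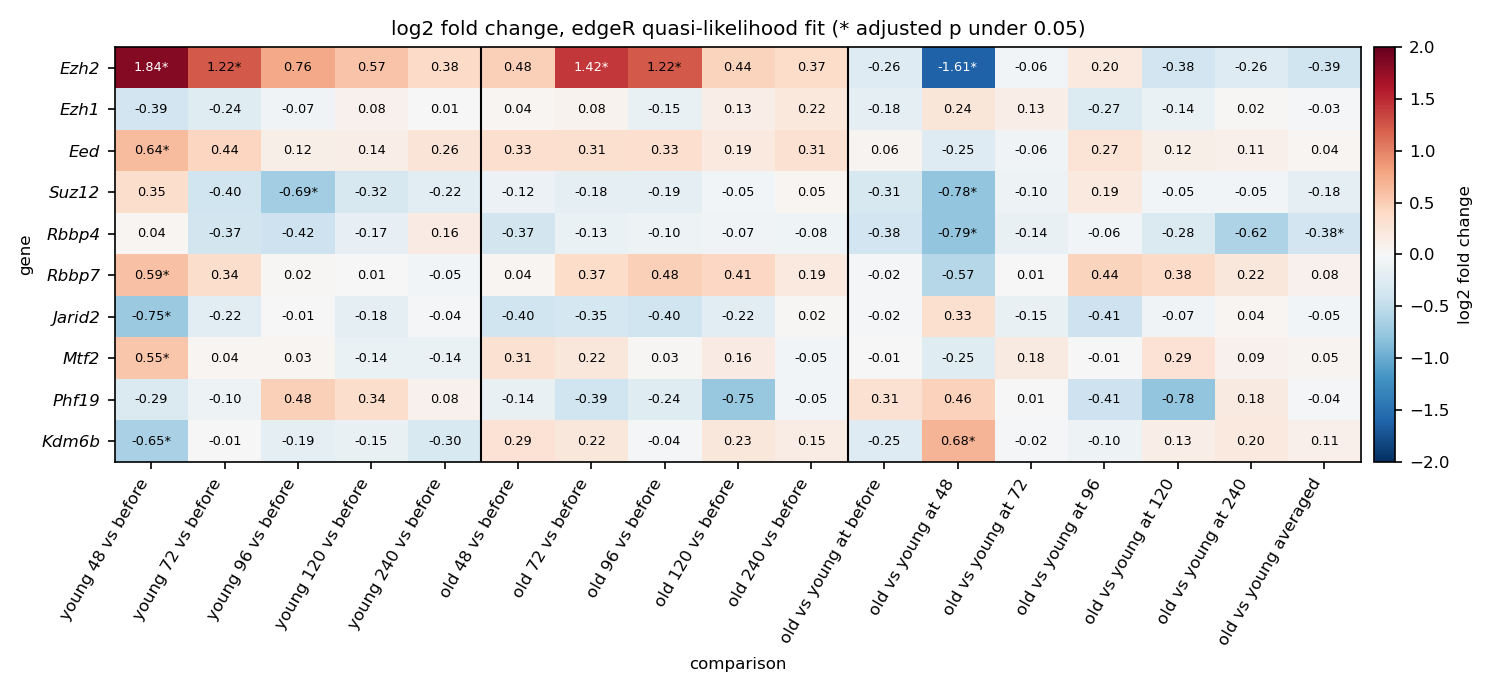
Log2 fold changes of the 10 genes (rows) in 17 comparisons (columns), from blue (lower) to red (higher); an asterisk marks an adjusted p under 0.05. The left block is young livers against before, the middle block old livers against before, and the right block old against young. The strongest colours are Ezh2 at 48 in young livers (1.84) and Ezh2 in old against young livers at 48 (-1.61).

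Calls between the ages were made at 48 and, for Rbbp4, on the average over time points. At 48, 4 of the 10 genes were called, 3 lower and 1 higher in old livers, where 11.2% of all genes were called (6.78% lower and 4.42% higher). The median of the 10 was -0.25 and that of all genes 0.02. These 4 were also the genes whose 3 old and 3 young libraries did not overlap, a separation seen in 21.6% of all genes. Ezh2 held 4.66 to 10.4 CPM in old and 19.1 to 34.3 CPM in young livers, a level 3.06 times lower on the fitted scale (log2 fold change -1.61 ± 0.33, adjusted p 0.00163). It was called in each of the 6 fits that left out a library at 48, with fold changes of -1.83 to -1.31, and without replicate 2 of old mice it was -1.34 (adjusted p 0.0204).

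Suz12 held 47.3, 44.0 and 38.9 CPM in old livers at 48, all below the lowest young library at 61.4 CPM, and was 1.72 times lower (-0.78 ± 0.15, adjusted p 0.00135). Rbbp4 held 46.9, 41.7 and 43.4 CPM in old livers, against 65.8 CPM or more in young livers, and was 1.73 times lower (-0.79 ± 0.21, adjusted p 0.0128). The Rbbp4 call was lost without replicate 1 of young mice (adjusted p 0.0539) and without replicate 2 of old mice (0.0602). Kdm6b, at 62.2 CPM or more in old livers and 57.4 CPM or less in young livers, was 1.61 times higher in old livers (0.68 ± 0.18, adjusted p 0.0132). Its call was lost without replicate 1 or 2 of young mice or replicate 1 of old mice (adjusted p up to 0.0822), and in the libraries without Y-linked transcripts alone (0.0613). Rbbp7 was next, at -0.57 ± 0.20 (adjusted p 0.0638). Without replicate 2 of old mice the genes called at 48 were Ezh2, Suz12, Kdm6b and Rbbp7 (-0.74, adjusted p 0.0494). There 5.01% of all genes were called. When only the 6 libraries at 48 were fitted, the fold changes were close to these (Ezh2 -1.58, Suz12 -0.76, Rbbp4 -0.77, Kdm6b 0.71), but none of the 4 was called, with adjusted p between 0.103 and 0.188. In that fit the spread, the low-count filter, the scaling and the adjustment of p all came from those 6 libraries. Which of these lost the calls was not tested, and the share of all genes called in that fit is not given here.

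Before regeneration edgeR and DESeq2 called 0 of the 10 genes between the ages (0 at an unadjusted p under 0.05), and 0.0595% of all genes. The fitted differences before were -0.26 ± 0.36 for Ezh2, -0.31 ± 0.15 for Suz12, -0.38 ± 0.21 for Rbbp4 and -0.25 ± 0.18 for Kdm6b. Both tools also called 0 of 10 at 72, 96, 120 and 240 (0, 2, 0 and 1 at an unadjusted p under 0.05), where 0.0%, 0.171%, 0.0% and 0.0149% of all genes were called. Averaged over the 6 time points, Rbbp4 was the 1 gene of the 10 called, 1.3 times lower in old livers (log2 fold change -0.38 ± 0.09, adjusted p 0.00711), where 5.98% of all genes were called, with 2.59% called lower. The fitted difference was negative at each of the 6 time points, from -0.79 at 48 to -0.06 at 96, and it was called in each of the 45 alternative fits (adjusted p at most 0.0174). Ezh2 (-0.39 ± 0.14, adjusted p 0.0866) and Suz12 (-0.18 ± 0.06, adjusted p 0.0841) did not pass.

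Whether the course over time differed with age was tested directly. In the age by time interaction, edgeR called 0 of the 10 genes (4 at an unadjusted p under 0.05) and 2.76% of all genes. The smallest adjusted p were 0.0789 for Suz12 and 0.153 for Ezh2, and DESeq2's likelihood ratio test called Suz12 (adjusted p 0.0174). Without replicate 2 of old mice at 48 the adjusted p was 0.129 for Suz12 and 0.395 for Ezh2 (edgeR). The change from before to 48 in old livers minus that in young livers was 0.94 ± 0.26 for Kdm6b (adjusted p 0.0566), -1.36 ± 0.48 for Ezh2 (0.142) and -0.47 ± 0.22 for Suz12 (0.282). EdgeR called 0 of the 10 genes in this test (3 at an unadjusted p under 0.05) and 1.38% of all genes, and DESeq2 called Kdm6b (0.93, adjusted p 0.0242). The differing calls at 48 in young and old livers thus do not by themselves show a different response.

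Genes of the cell cycle were read beside Ezh2. Of 20 replication genes under E2F control, 18 rose at 48 in young and 5 in old livers, 12 rose at 72 and 11 at 96 in old livers, and 14 were lower in old than in young livers at 48. Of 20 mitotic genes, 20 rose at 48 in young and 3 in old livers, 20 rose at 72 and 19 at 96 in old livers, and 20 were lower in old livers at 48. Of all tested genes 12.2% were called higher at 48 in young livers, 12.1% higher at 48, 6.54% higher at 72 and 3.76% higher at 96 in old livers, and 6.78% lower in old than in young livers at 48. With replicate 2 of old mice at 48 left out, 10 replication and 14 mitotic genes rose in old livers at 48 (16.8% of all genes called in either direction). In that fit 5 replication and 18 mitotic genes were lower in old than in young livers (5.01% of all genes called). The 20 replication genes summed to 864 to 1108 CPM in young livers at 48 and to 461, 154 and 334 CPM in the old livers, where the lowest is replicate 2, the library with least Ezh2. Over the 36 libraries, Pearson's r with the mean level of the replication genes was 0.83 for Ezh2, 0.62 for Rbbp7, 0.57 for Eed, 0.57 for Mtf2, 0.03 for Rbbp4, 0.23 for Suz12, -0.30 for Kdm6b, -0.39 for Phf19, -0.57 for Ezh1 and -0.78 for Jarid2. These points share age, time point and library scaling, and what part cell division has in each result was not tested.

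**Figure D4:**
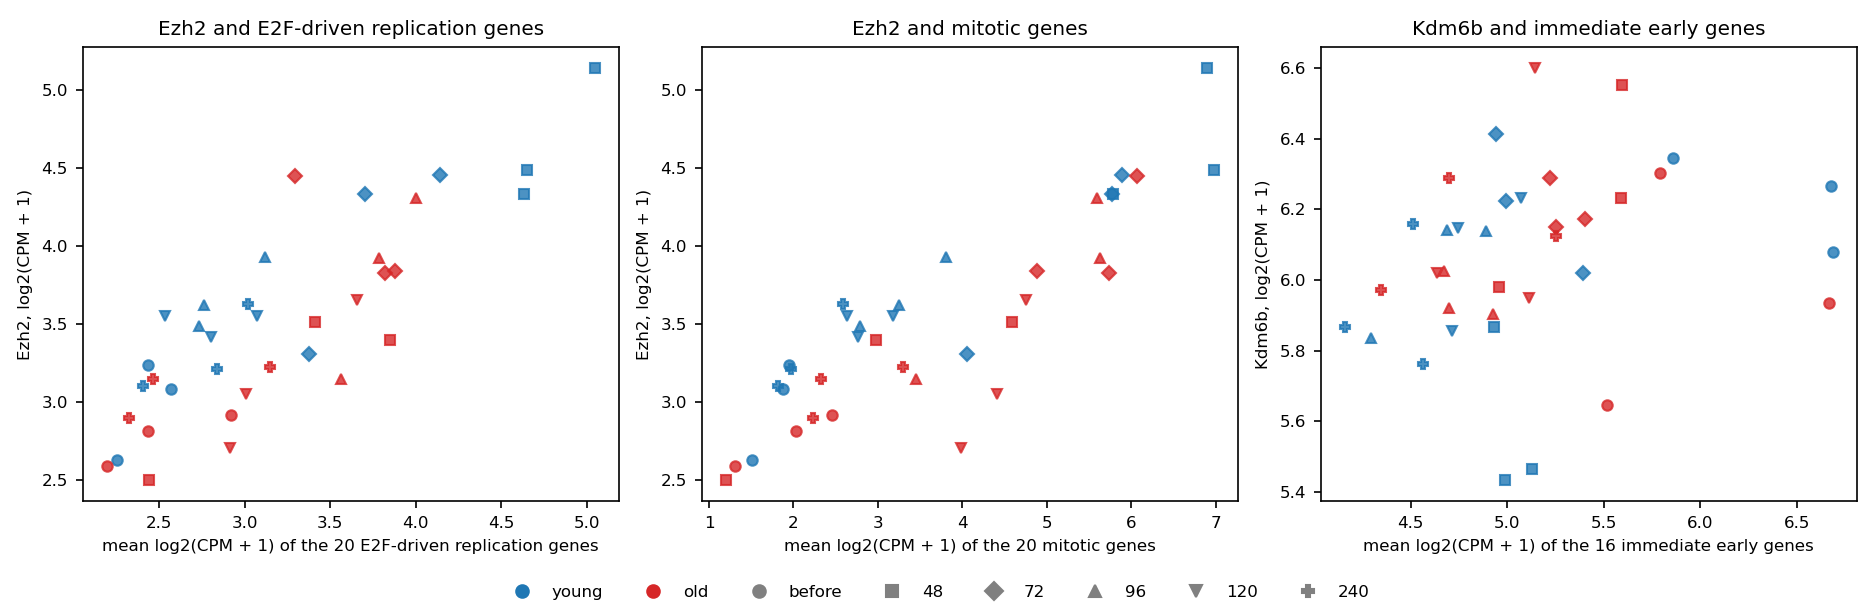
Level of Ezh2 against the mean level of 20 replication genes (left) and 20 mitotic genes (middle), and of Kdm6b against 16 immediate early genes (right), each as log2(CPM + 1), in the 36 libraries. Colour gives the age (blue young, red old) and the symbol the time point label. Pearson's r is 0.83, 0.86 and 0.24.

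Kdm6b can be induced by stress and inflammatory signals, and 16 immediate early genes were read beside it. Of these, 9 fell and 1 rose at 48 in young livers (9.79% of all genes called lower and 12.2% higher), and 5 fell and 3 rose in old livers (24.1% called, 12.1% higher). In old livers 3 fell and 0 rose when replicate 2 at 48 was left out (16.8% of all genes called in either direction). They summed to 1705 to 3451 CPM in young livers before and 844 to 972 CPM at 48. In old livers they summed to 1485 to 3138 CPM before and 778 to 1460 CPM at 48, without overlap. Over the 36 libraries the correlation of Kdm6b with their mean level was weak (r = 0.24). At 72 in young livers, where Kdm6b covered its range before, they summed to 814 to 1185 CPM. The part of these genes in the Kdm6b result was not tested.

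The genes most like each of the 10 were ranked by Pearson's r over the 36 libraries among 12618 genes, as a description. For Ezh2 they were Rbl1 (0.91), a pocket protein that binds E2F factors, Cdkn2c (0.90), a cyclin-dependent kinase inhibitor, and Ercc6l (0.89), a mitotic helicase. For Eed the first was Nasp (0.76), a histone chaperone, for Mtf2 Nup155 (0.75), a nuclear pore protein, and for Rbbp7 Vars (0.81), a valyl-tRNA synthetase. Jarid2 was most like Dnajb6 (0.85), Akap13 (0.84) and Trak1 (0.82). For Suz12 they were Slc30a4 (0.77), Crk (0.74) and Lcorl (0.72), the last itself a PRC2 accessory gene. Rbbp4 was most like Cmtm6 (0.76), Ezh1 most like Gpr17 (0.77), Phf19 most like Peak1 (0.70) and Kdm6b most like Tns2 (0.68), followed by Kmt2d (0.61), an H3K4 methyltransferase. Among the 10 genes themselves the most negative pair was Ezh2 and Jarid2 (r = -0.57).

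The remaining PRC2 accessory genes and the genes of complexes that share Rbbp4 or Rbbp7 were read from lists. Of 6 further accessory genes 5 were tested. In young livers at 48, 1 of the 5 was called, close to the share of all genes called there (21.9%). It was Phf1, a relative of Mtf2 and Phf19, which fell by 0.82 (SE 0.24, adjusted p 0.0122). Phf1 fell in old livers at 48 as well, by 0.81 (adjusted p 0.0129), where 24.1% of all genes were called. That call was lost without replicate 2 of old mice at 48 (-0.69, adjusted p 0.0717). Lcorl was the 1 of the 5 called between the ages at 48, where 11.2% of all genes were called. It stood at 26.6 to 37.7 CPM in old and 52.0 to 56.7 CPM in young livers (-0.69 ± 0.14, adjusted p 0.00189). Of 17 genes of CAF-1, NuRD and Sin3, 5 rose at 48 in young livers, and 7 rose and 1 fell in old livers (12.2% and 12.1% of all genes called higher). In old livers 4 rose and 1 fell when replicate 2 at 48 was left out (16.8% of all genes called in either direction). Chaf1a, the large CAF-1 subunit, rose from a mean of 6.03 to 63.3 CPM in young livers and from 3.85 to 18.4 CPM in old livers at 48. Between the ages at 48, 4 of the 17 were lower in old livers, among them Chaf1a (-1.79 ± 0.47, adjusted p 0.0127) and Chaf1b (-2.04 ± 0.41, adjusted p 0.0017), and 1 was higher (6.78% of all genes called lower and 4.42% higher). When replicate 2 of old mice at 48 was left out, 1 of the 17 was called between the ages, close to the share of all genes (5.01%). It was Chaf1b (-1.81, adjusted p 0.0195), and the Chaf1a call was lost (-1.49, adjusted p 0.0956).

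Markers of cell types were read in the same groups. At 48 in young livers 5 of 11 hepatocyte markers, 3 of 10 endothelial markers and 1 of 4 T and B cell markers fell, where 9.79% of all genes were called lower. There 1 of 12 macrophage and monocyte, 1 of 11 stellate and fibroblast and 1 of 2 neutrophil markers rose, where 12.2% of all genes were called higher, so the macrophage and stellate counts were no larger than that share. The 12 hepatocyte genes summed to 34140 to 40334 CPM before and 24890 to 26616 CPM at 48. In old livers at 48 the numbers that fell were 5 of 11 hepatocyte, 4 of 12 macrophage and monocyte, 2 of 4 T and B cell and 1 of 10 endothelial markers. Of all genes 24.1% were called there in either direction, with 12.1% called higher and the rest lower. Without replicate 2 of old mice at 48 they were 0 of 11, 3 of 12, 1 of 4 and 1 of 10 (16.8% of all genes called in either direction). In that fit 1 of 11 stellate and fibroblast markers rose.

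Between the ages at 48, 0 of 11 hepatocyte markers were called by edgeR, and 1 of 12 macrophage and monocyte, 1 of 10 endothelial and 1 of 4 cholangiocyte markers were higher and 1 of 11 stellate and fibroblast markers was lower in old livers, where 11.2% of all genes were called. When replicate 2 of old mice was left out, edgeR called none of these markers between the ages (5.01% of all genes called). At 48 macrophage and monocyte genes summed to 473 to 673 CPM in young and 228 to 760 CPM in old livers, overlapping ranges, with none of the 12 at 0 in any library. The 11 T and B cell genes summed to 8.95 to 15.5 CPM in young livers before and 4.68 to 7.68 CPM at 48, and to 11.4 to 28.6 CPM in old livers before and 1.33 to 10.6 CPM at 48, without overlap at either age. They reached at most 32.6 CPM in any library, with up to 7 of them at 0, most often Cd3d and Cd8b1. The 7 neutrophil genes summed to 1.24 to 1.45 CPM before and 2.96 to 8.50 CPM at 48 in young livers, without overlap, and to 1.83 to 19.3 CPM and 7.77 to 33.2 CPM in old livers. The 8 cholangiocyte genes summed to 56.0 to 65.9 CPM before and 41.6 to 53.6 CPM at 48 in young livers, without overlap, and to 42.2 to 83.6 CPM and 73.8 to 229 CPM in old livers. The part of cell composition in the results above was not tested.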

How the data were processed

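Total RNA of 36 mouse liver libraries was sequenced, 3 for each age and time point. The authors deposited raw counts by gene symbol, in 1 table per library. Per the labels' protocols, ribosomal RNA was depleted. The submitters' processing notes name STAR 2.7.5b, featureCounts, Trimmomatic 0.39 and build GRCm38/mm10. The annotation and the use of strand are not given in the sources used here. ERCC spike-ins are described, but the tables held 0 such rows, so changes in total RNA per cell cannot be seen.

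The 10 genes, the gene lists and the rules were chosen with earlier results of these data known. Counts were tested with edgeR 4.0.16 (R 4.3.3): TMM scaling, filterByExpr, and 1 robust quasi-likelihood fit of all libraries with 1 mean per group. Within each comparison, p-values of 13436 genes were adjusted (Benjamini-Hochberg), and genes called under 0.05. SE is the log2 fold change divided by the square root of F. Total counts per library were 2328233 to 6034446, so 3 counts correspond to 0.497 to 1.29 CPM. Lists are described by counts of calls. The named genes are the 10 members and Kdm6a, the 3 genes most correlated with each, and up to 2 called genes per list with the smallest p for change over time. Alternatives were DESeq2 1.42.0, other scalings and filters, a replicate block, a term for Y-linked transcripts, subsets of libraries and leaving out each library. A fit without robust estimation, the test of the change in old minus that in young livers, and counts over the lists without replicate 2 of old mice at 48 were added after the data had been seen. Libraries with equal replicate numbers in the titles were not treated as pairs (mean correlation of deviations 0.0366 in young, 0.0797 in old). For different numbers the mean was -0.0135 in young and -0.0357 in old, and low means cannot exclude a pairing. In young mice the library with Y-linked transcripts was replicate 1 before and replicate 3 at 48. In old mice it was replicate 1 before and replicate 3 at 72. Equal numbers thus did not follow 1 animal through all time points. The test was also tried on simulated counts. Gene positions are from GENCODE M21 (GRCm38).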

Additional observations from a re-analysis of the deposited data

How the results depend on the processing

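None of 5310 alternative values of 220 single-gene results reversed, where a reversal is a change of sign with a call in either fit. Changes of sign without a call were not counted. In all, 5254 kept their direction where called and their side of the threshold, 39 lost a call and 17 gained one. Of the 15 called results, 3 were called in every alternative run: Ezh2 at 48 in young livers, Ezh2 at 72 in old livers and Rbbp4 averaged over time points. In the counts of members called, the 24 libraries without Y-linked transcripts gave 3 for young livers over time (against 8), 1 for old livers (against 2) and 2 for any change (against 6). A fit of only the groups compared gave 1 for old livers over time and 0 for old against young (against 4). DESeq2 gave 8 for any change (against 6). It gave 1 for the interaction and 1 for the difference in change (both against 0), and a term for Y-linked transcripts gave 1 for the latter. Leaving out each library in turn gave 3 to 9 for young livers, 1 to 3 for old livers, 2 to 4 for old against young, 1 to 2 for the average, 0 to 1 for the interaction, 3 to 8 for any change and 0 to 1 for the difference in change. Subsets hold fewer libraries. For the other settings the cause was not tested.

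A replicate block by title number within age gave 8, 2, 4, 1, 0, 6 and 0 in the same order, equal to those without it. Same-numbered libraries correlated at 0.0366 in young and 0.0797 in old livers (19 of 45 pairs over 0.1 at each age). Those with different numbers correlated at -0.0135 in young and -0.0357 in old livers (34 and 32 of 90 pairs over 0.1). With total-count scaling the all-gene median reached 0.21 in log2 units (young livers at 72), against 0.01 in the fit reported. Phf19 had the fewest counts of the 10 genes, 14 to 62 per library, and the part of depth in its lack of calls was not tested.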

Other observations

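Other chromatin genes tied to PRC2 were read from lists. PRC1 is the complex that ubiquitinates histone H2A at Polycomb sites. Of its 20 genes, 3 rose and 1 fell at 48 in young livers, and the numbers were equal in old livers. Of all tested genes 21.9% were called in young and 24.1% in old livers at 48, so 4 of 20 is close to the share of all genes. Without replicate 2 of old mice at 48, 2 rose and 1 fell in old livers (16.8% of all genes called in either direction). Cbx7, a PRC1 subunit that binds H3K27me3, fell from a mean of 18.4 to 8.94 CPM in young livers at 48 (log2 fold change -1.05 ± 0.35, adjusted p 0.0303) and from 21.5 to 6.71 CPM in old livers (-1.67 ± 0.35, adjusted p 0.00125). Kdm2b, which recruits a PRC1 form to CpG islands, rose in both (0.91 ± 0.23, adjusted p 0.00449, and 0.97 ± 0.23, adjusted p 0.00299). EdgeR called 0 of the 20 PRC1 genes between the ages at 48 (11.2% of all genes), and 1 without replicate 2 of old mice (5.01% of all genes). Of the 7 genes of H3K27 acetylation and of the MLL3/4 complexes, 2 rose and 1 fell at 48 in young livers (12.2% of all genes called higher, 9.79% lower). In old livers 1 fell (24.1% of all genes called), and 1 rose and 1 fell without replicate 2 (16.8% called). Kmt2c, the MLL3 methyltransferase, fell in both (-0.77 ± 0.13, adjusted p 5e-05, and -0.51 ± 0.13, adjusted p 0.004). Hox genes, classical PRC2 targets, were near silence. Only 4 of the 38 in the tables passed the filter on low counts, and the 38 summed to 8.40 to 33.1 CPM per library.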
